A study of Arabidopsis thaliana with 21 samples.

Results

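Of 22746 probe sets on the array, 130 measured transcripts that were repressed by cold in the wild type and yet higher in warm plants of a mutant in 3 CAMTA genes. Membership was set by group means of log2 levels: a wild-type (WT) mean at 4 °C at least 1 below the WT mean at 22 °C, and a camta1/2/3 mean at 22 °C at least 1 above that same WT mean, where 1 on this scale is 2-fold. Both differences were therefore fixed by the choice of members and are given as description only. The cold threshold alone was met by 1150 probe sets and the mutant threshold alone by 1211. Among the 130, 62 were paired with 1 gene each, all different, 3 were paired with several genes, and 65 had no gene in the probe table used here and are given by their probe set ID.

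The samples were whole shoots (aerial parts) of Arabidopsis thaliana in the Col-0 background, from plants aged 3 weeks that had been raised on soil at 22 °C in a 12 h photoperiod. Warm groups, kept at 22 °C, were WT, 3 double mutants (camta2/3, camta1/3 and camta1/2) and the camta1/2/3 triple mutant. Cold groups, given 24 h at 4 °C, were of WT and of camta1/2/3. Each of the 7 groups had 3 arrays, labelled biological replicates, and no double mutant was sampled in the cold. The labels name the mutants by their genes alone, with no allele or line. The mutated genes had no named probe set, so that the genotypes were not checked on the arrays.

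CAMTA proteins are calmodulin-binding transcription activators, which carry a DNA-binding CG-1 domain and read calcium signals through calmodulin. In Arabidopsis, CAMTA3 together with CAMTA1 and CAMTA2 holds down salicylic acid production and defence genes in warm-grown plants, and these factors also take part in the early induction of cold-response genes such as those of the CBF pathway. Chilling of a rosette lowers the transcripts of many growth, wall and photosynthesis genes while raising those of cold-acclimation genes.

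Total RNA was measured on 21 arrays, and the deposited log2 values (GCRMA) ran from 2.17 to 14.27, with array medians between 4.86 and 5.01. Leaf genes had high levels in WT at 22 °C (LHCB4.2 12.45, RCA 13.66, PRK 11.22), whereas the pollen gene AT5G45880 stood at 3.44, and the root-type β-glucosidase gene PYK10 was measured at 7.97 ± 0.48. PYK10 moved with the conditions of the rule: it was at 6.40 ± 0.05 in cold WT (limma adjusted p = 0.00167 against warm WT), at 8.83 ± 0.43 in warm camta1/2/3 (adjusted p = 0.0585 against warm WT) and at 7.14 ± 0.18 in cold camta1/2/3 (adjusted p = 0.00101 against the warm triple mutant), each as mean ± SD of 3 arrays. The part of root material in the results was not tested. The actin controls of the array give a 3′ minus 5′ gap, which grows as RNA or its copies shorten. In warm plants this gap was lowest in camta1/2 (2.09 ± 0.05, mean ± SD, n = 3) and WT (2.23 ± 0.21), then came camta1/3 (2.48 ± 0.26), camta2/3 (2.62 ± 0.16) and camta1/2/3 (2.90 ± 0.13). Cold WT had 2.0 ± 0.62 and cold camta1/2/3 3.11 ± 1.0. This gap thus followed nearly the same order over the warm genotypes as the 130 transcripts do below. Its part in them was not tested beyond the counts with it as a covariate. An older actin set on the array gave an order that differed in part. Its gap was 7.21 ± 0.31 in warm WT, 7.44 ± 0.13 in camta1/2 and 7.41 ± 0.29 in camta1/3. In camta2/3 it was 7.52 ± 0.05 and in warm camta1/2/3 7.51 ± 0.22. A transcript is called higher or lower here where limma gave an adjusted p under 0.05 over all 22746 probe sets, and these p-values measure only the spread between such arrays. In RNA from whole shoots, fewer cells of a type and less RNA per cell cannot be told apart.

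Over the 130 probe sets, the median of the group means was 6.48 in WT at 22 °C and 4.80 in WT at 4 °C. In the warm mutants it was 6.88 in camta1/2, 7.36 in camta1/3, 7.60 in camta2/3, with 8.25 in the triple mutant. After cold camta1/2/3 stood at 6.97, between its own warm level and that of cold WT and above warm WT. On single arrays, the median over the members was 6.75, 6.28 and 6.31 in warm WT and 4.65, 5.06 and 4.62 in cold WT. It was 6.86, 6.92 and 6.90 in camta1/2, 7.54, 7.32 and 7.24 in camta1/3, and 7.82, 7.50 and 7.50 in camta2/3. The triple mutant gave 8.36, 8.11 and 8.46 in the warm and 7.12, 7.11 and 6.82 in the cold. Every camta1/2/3 warm array lay above every array of the other groups, every cold WT array lay below all others, and the arrays of camta1/3 and camta2/3 overlapped.

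**Figure D1:**
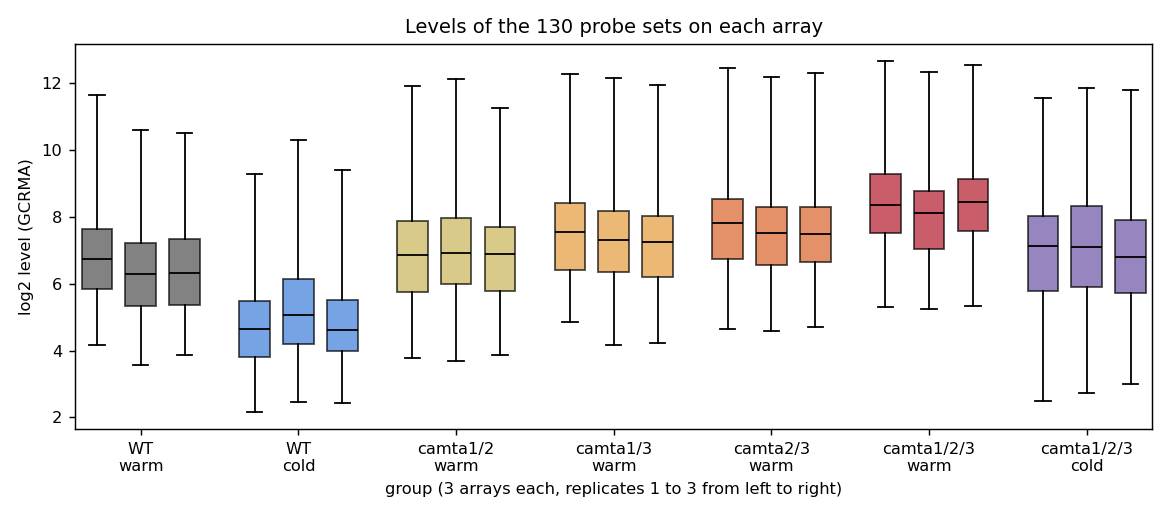
Log2 levels of the 130 probe sets on each of the 21 arrays, in 7 groups of 3; boxes hold the middle quartiles, the line is the median and whiskers reach the lowest and highest probe set. Medians fall to between 4.62 and 5.06 in cold WT and reach 8.11 to 8.46 in warm camta1/2/3; both of these groups chose the members.

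In the contrasts that chose the members, the fall in cold WT ran from -1.01 to -4.67 with a median of -1.36, and limma called 119 of the 130 lower, against 13.1% of all probe sets. The rise in warm camta1/2/3 ran from 1.01 to 3.70 with a median of 1.61, and 125 were called higher, against 11.1% of all. Both counts follow from the choice of members, so their distance from the shares of all probe sets is no result. The deepest named falls in cold WT were those of the Kelch-repeat F-box gene AT1G23390, from 9.87 to 5.75, and of the PB1-domain gene AT3G26510, from 7.68 to 4.39. Just inside the cold threshold was the aldo-keto reductase gene AT1G59960 at -1.01, and just outside it AT1G16670 at -0.993. For the mutant threshold, AT3G55960 at 1.013 was just inside and 262919_at at 0.993 just outside. In cold WT, 6 members had means of 3 or lower, and since the values came without detection calls, differences from such levels may be understated.

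The double mutants at 22 °C had no part in the rule, so comparisons among them give measurements that the choice did not fix. Each lacks 2 of the 3 genes: camta1/2 keeps CAMTA3, camta1/3 keeps CAMTA2 and camta2/3 keeps CAMTA1. The 130 transcripts were on the whole lowest in camta1/2 and highest in camta2/3. The mean in camta2/3 was above that in camta1/2 for 127 of 130 members, the mean in camta1/3 was above that in camta1/2 for 124, and the mean in camta2/3 was above that in camta1/3 for 113. Such counts were not made for other probe sets. The order was not particular to the members. For the 1081 other probe sets raised in warm camta1/2/3, median differences were 0.58 for camta2/3 and 0.32 for camta1/3, each against camta1/2. For camta1/3 against camta2/3 their median was -0.31.

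Between camta2/3 and camta1/2, 15 of the 130 were called higher in camta2/3, where 0.712% of all probe sets were, and no member was lower even at an unadjusted p under 0.05. The median difference over the members was 0.65 (range -1.21 to 2.20), and that over all probe sets was 0.00; 70 members were higher at an unadjusted p under 0.05. Of the 1081 other probe sets raised in warm camta1/2/3 but not cold-repressed, 11.5% were called higher in the same comparison, the same share as of the members. Of the 1020 cold-repressed probe sets that were not raised in warm camta1/2/3, 43 were called, all of them lower. The count of 15 moved with the arrays and settings used: leaving out 1 array gave 16 without camta1/2 replicate 2, 5 without camta1/2 replicate 1 or replicate 3 or camta2/3 replicate 3, 6 without camta2/3 replicate 1 and 8 without camta2/3 replicate 2. With the actin gap in the model, 8 were called, with only the 6 arrays of these groups in the fit 3 were, with array weights 42 and with a filter on a mean of at least 4 over all arrays 31.

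The clearest of these calls among the named genes was AT3G29240, which read 8.83, 8.71 and 8.68 in camta1/2, 9.15, 9.64 and 9.39 in camta1/3 and 10.37, 10.09 and 9.95 in camta2/3. The groups did not overlap, and camta2/3 was higher than camta1/2 by 1.40 (SE 0.18, limma adjusted p = 0.00174). AT1G72890, a gene for a TIR-domain protein of the type found in intracellular immune receptors, read 5.49, 5.41 and 5.35 in camta1/2, 5.48, 5.94 and 6.10 in camta1/3 and 6.45, 6.35 and 6.43 in camta2/3. Its arrays in camta2/3 were all above those of both other doubles, with a difference of 0.99 from camta1/2 (adjusted p = 0.00803). ZCF37, a gene of undescribed function here, differed by 1.63 (adjusted p = 0.027), with 5.98, 6.64 and 5.76 in camta1/2 and 7.95, 7.23 and 8.10 in camta2/3. Among probe sets without a gene name, 254247_at differed by 1.57 (adjusted p = 0.00292), 253806_at by 1.52 (adjusted p = 0.00491) and 260287_at by 1.27 (adjusted p = 0.00405). AT3G29240, AT1G72890 and these 3 probe sets were called in all 6 fits that left out 1 array of the pair, and the other 10 were lost in at least 4 of the 6.

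The other named genes called between camta2/3 and camta1/2 were of several kinds. AT5G37740, for a C2-domain protein of the type that binds calcium and membranes, differed by 1.23 (adjusted p = 0.0454). AT5G18780, for an F-box protein that can select targets for ubiquitination, differed by 1.16 (adjusted p = 0.0422), and AT3G15760 by 1.1 (adjusted p = 0.025). AT2G31110, a gene of the trichome birefringence-like family of wall polysaccharide acetylation, differed by 1.02 (adjusted p = 0.0368), and the GDSL lipase gene AT1G28580 by 0.93 (adjusted p = 0.0259). These last 2 and AT1G72890 are outside the 5 largest called differences and were named here after their values were seen. All of these had every camta2/3 array above every camta1/2 array.

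Between camta1/3 and camta1/2, limma called 0 of the 130, where 0.00879% of all probe sets were called higher, and 29 members were higher at an unadjusted p under 0.05. The median difference was 0.40 (range -1.29 to 2.41). Between camta1/3 and camta2/3 limma called 0 again, where 0.0747% of all probe sets were called higher and 0.0308% lower; 24 members were lower in camta1/3 at an unadjusted p under 0.05, and the median difference was -0.25 (range -0.83 to 0.41). Both ends of the first range belonged to genes whose arrays varied widely within a group. OSM34, the gene for osmotin, a defence protein induced by osmotic stress, read 4.26, 3.69 and 5.14 in camta1/2 and 7.99, 6.56 and 5.77 in camta1/3, 2.41 higher with an adjusted p of 1.0. QQS, a gene known for its effect on leaf starch, read 8.66, 6.40 and 5.21 in camta1/2 and 5.74, 5.26 and 5.39 in camta1/3, 1.29 on the log2 scale lower in the latter, with an adjusted p of 1.0.

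**Figure D2:**
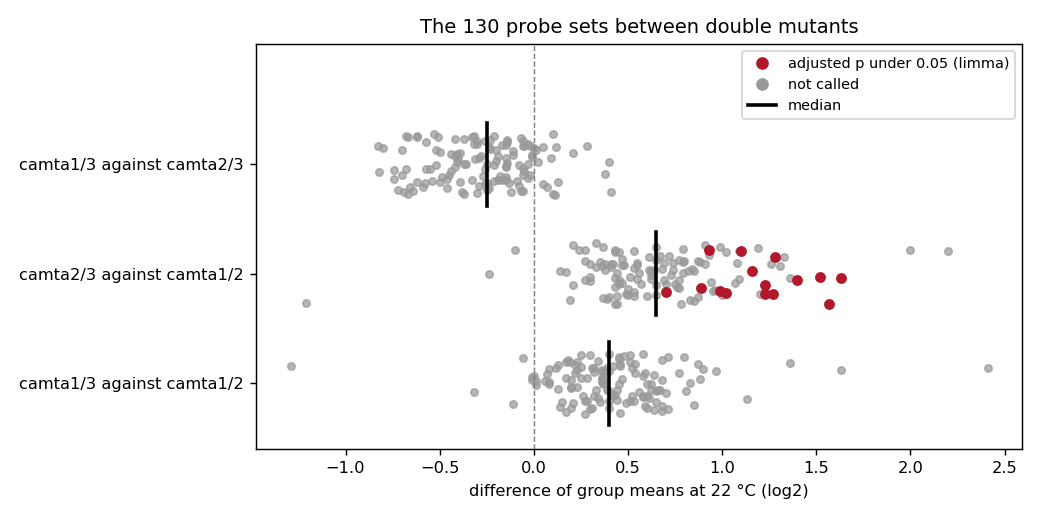
Differences of group means between pairs of double mutants at 22 °C for the 130 probe sets (points, log2, spread vertically for legibility), with the median as a bar. The median is 0.65 for camta2/3 against camta1/2, where the 15 red points are called by limma, and 0.40 and -0.25 in the other pairs, where none is.

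Set against warm WT, whose arrays also chose the members, the doubles are given as a description, by counts and differences. The counts of limma calls rest on adjusted p-values that use those arrays, so they are no independent test. The mean was above that of WT for 108 members in camta1/2, 126 in camta1/3 and 126 in camta2/3, and it was at least 1 above for 13, 42 and 64. The shares of all probe sets with such means were not computed. Limma called 2 higher in camta1/2 (0.101% of all probe sets), 33 in camta1/3 (1.67%) and 72 in camta2/3 (4.61%). These were 1.54%, 25.4% and 55.4% of the members. Of the 1081 other probe sets raised in warm camta1/2/3 but not cold-repressed, 1.76%, 28.9% and 63.9% were called higher, so such calls were not particular to the members. All 33 called in camta1/3 were among the 72 of camta2/3, an overlap that was not computed over all probe sets. With only the arrays of the 2 groups compared in the fit, the counts were 0 in camta1/2, 0 in camta1/3 and 39 in camta2/3. The count for camta1/3 was 11 to 34 when 1 array was left out, falling most without camta1/3 replicate 2 (11), camta1/3 replicate 3 (13), WT replicate 2 (13) or WT replicate 3 (17). The count for camta1/2 was 10 without WT replicate 1, 9 without camta1/2 replicate 3 and 0 without any 1 of the other arrays.

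Called in all 3 doubles were MSRB9 and the unnamed 267083_at. MSRB9, for a methionine sulfoxide reductase that repairs oxidised methionine, read 6.35, 5.75 and 5.56 in warm WT, 7.30, 7.66 and 6.94 in camta1/2, 7.22, 7.81 and 7.26 in camta1/3, 8.32, 7.99 and 7.83 in camta2/3, with 8.28, 7.95 and 8.29 in the triple mutant. Every mutant array was above every WT array, and camta2/3 overlapped with the triple mutant. In contrast, 16 members had rises under 0.5 in each double, a count not made for other probe sets. Among them was AT5G63190, for a protein with MA3 domains, which read 8.04, 7.70 and 7.66 in WT, 7.69, 7.36 and 8.02 in camta1/2, 8.07, 8.04 and 7.87 in camta1/3 and 8.06, 8.29 and 8.22 in camta2/3, against 9.16, 9.0 and 9.10 in camta1/2/3. The triple mutant stood apart, and among the others only camta2/3 lay wholly above WT, by a narrow margin.

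**Figure D3:**
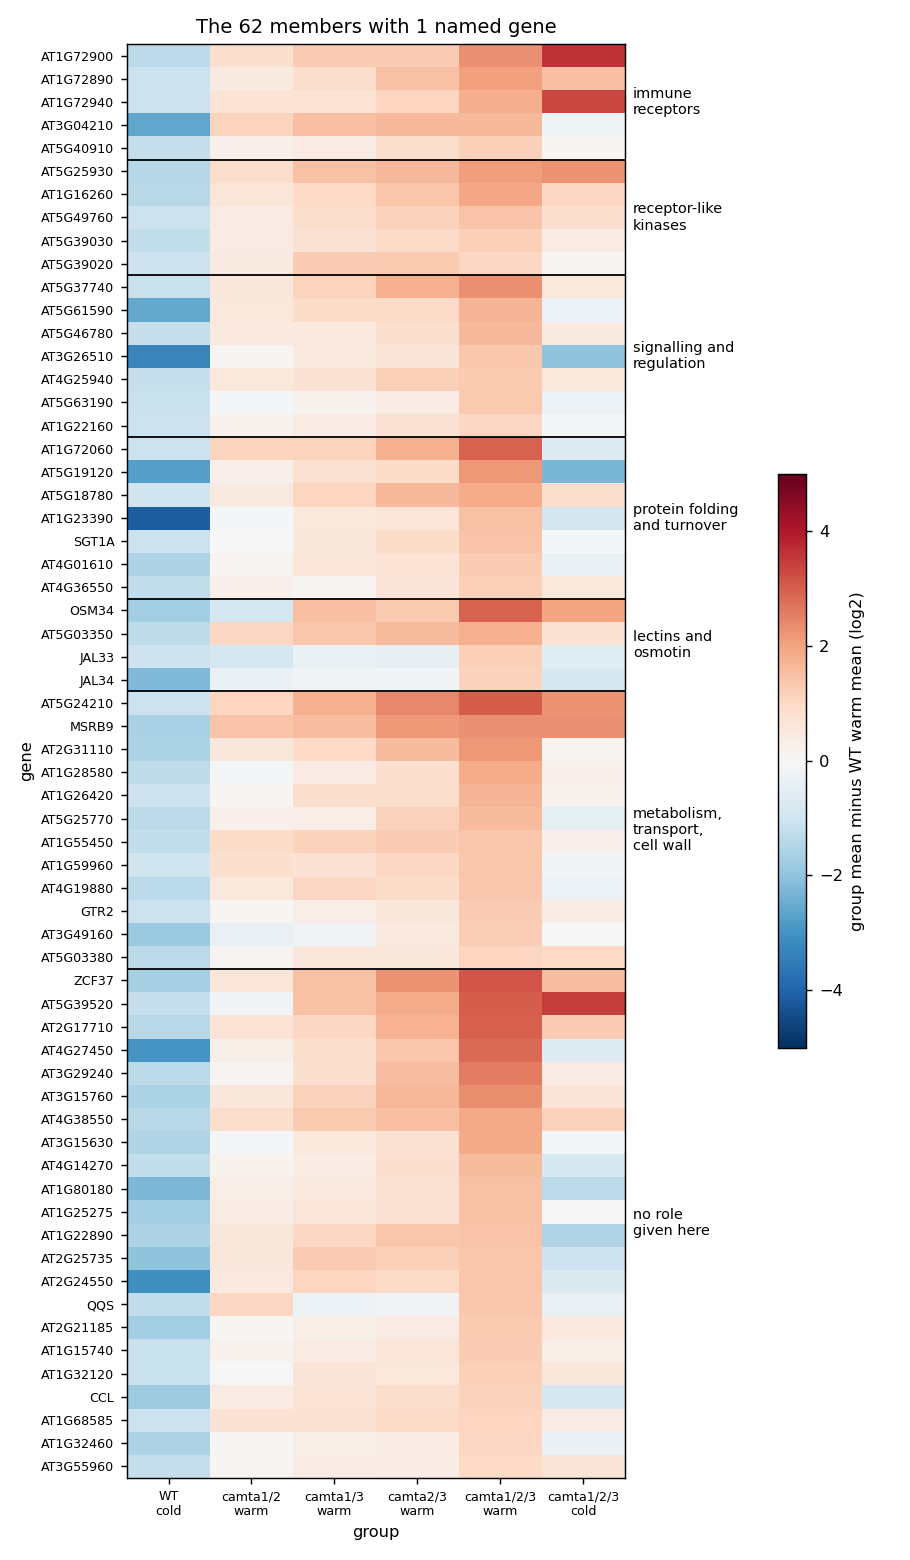
Group mean minus the warm WT mean (log2, colour from -5 to 5) for the 62 members with 1 gene, in rows grouped by role, for the other 6 groups in columns. The WT cold and warm camta1/2/3 columns are blue and red by the choice of members, and the cold triple column holds both colours. On the whole the doubles deepen in red from camta1/2 to camta2/3. Exceptions include JAL33 and JAL34, below warm WT in all doubles, and QQS, above it only in camta1/2 among the doubles.

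The named members with a known role fell into 6 groups, put together after their values were seen. Their counts use arrays that the rule also used, so they are a description. Over all probe sets, 4.61% were called higher than warm WT in camta2/3, 1.67% in camta1/3 and 0.101% in camta1/2. Of the 1081 other probe sets raised in warm camta1/2/3, 63.9%, 28.9% and 1.76% were. In the cold within camta1/2/3, 12.3% of all probe sets were called lower. Receptors of the immune system made up the first. TIR-domain proteins work inside the cell, where receptors of this class set off defence on sensing pathogen effectors. The 5 members here were AT3G04210, AT1G72890, AT1G72900, AT1G72940 and the TIR-NBS-LRR gene AT5G40910. All 5 were called higher in camta2/3 than in warm WT (4.61% of all probe sets) and 3 in camta1/3 (1.67%), with a median difference of 1.28 in camta2/3, 0.88 in camta1/3 and 0.67 in camta1/2.

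AT1G72900 read 5.31, 5.40 and 5.42 in warm WT and 4.42, 4.19 and 3.67 in cold WT. In the doubles it read 5.93, 6.55 and 6.03 in camta1/2, 6.77, 6.71 and 6.41 in camta1/3 and 7.04, 6.64 and 6.30 in camta2/3. The triple mutant read 7.95, 6.91 and 8.08 in the warm and 8.85, 9.28 and 8.80 in the cold. All doubles were above warm WT, the doubles overlapped each other, and the cold triple arrays were the highest of all. AT1G72940 read 5.46, 5.41 and 5.87 in warm WT, 4.80, 4.14 and 4.56 in cold WT, 7.64, 7.10 and 7.44 in warm camta1/2/3 and 9.03, 8.84 and 8.88 in cold camta1/2/3. Again the triple mutant was highest in the cold, with no overlap. AT1G72890 by contrast read 7.05, 6.85 and 7.20 in the warm triple mutant and 6.74, 6.33 and 6.38 in the cold one, against 3.81, 4.07 and 3.75 in cold WT. It was called lower in the cold within camta1/2/3.

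AT1G72890 and AT1G72900 are next to each other in the RefSeq gene order on chromosome 1, and AT1G72940 follows after 3 other coding genes, which are not members by a named probe set. Whether probes of these related genes cross-hybridise was not tested, since probe sequences were not used here. The other TIR genes fell in the cold in both genotypes. AT3G04210 read 7.52, 6.68 and 6.98 in warm WT, 4.38, 4.26 and 4.76 in cold WT, 9.16, 8.12 and 8.76 in warm camta1/2/3 and 6.83, 6.77 and 6.99 in cold camta1/2/3. Its cold triple level overlapped with that of warm WT. AT5G40910 did likewise, with 5.59, 5.73 and 5.6 in warm WT and 5.58, 5.93 and 5.75 in cold camta1/2/3.

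The receptor-like kinases, which span the plasma membrane and pass signals from the cell surface inward, were AT5G49760 and AT5G25930 with leucine-rich repeats, the wall-associated kinase-like gene AT1G16260 and the malectin-like kinase genes AT5G39020 and AT5G39030, which have 1 coding gene between them. All 5 were called higher than warm WT in camta2/3 and 1, AT5G39030, in camta1/3. The median difference was 0.45 in camta1/2, 1.0 in camta1/3 and 1.30 in camta2/3. AT5G25930 read 6.27, 4.79 and 4.98 in warm WT, 3.47, 4.56 and 3.76 in cold WT, 7.38, 6.99 and 7.91 in warm camta1/2/3 and 7.09, 8.20 and 7.46 in cold camta1/2/3. Replicate 1 of warm WT stood above the other WT arrays, and the triple mutant had overlapping levels in the warm and the cold. AT5G39030 read 6.16, 5.76 and 5.88 in warm WT, 6.30, 6.48 and 6.22 in camta1/2, 6.75, 6.65 and 6.52 in camta1/3, 6.65, 7.08 and 6.87 in camta2/3, with 6.87, 7.33 and 7.20 in the triple mutant. Each mutant array lay above each WT array; camta1/2 and camta1/3 did not overlap, while camta1/3 with camta2/3 and camta2/3 with the triple mutant did. AT5G39020 differed in that its mean was 6.57 in warm camta1/2/3, below 6.80 in camta1/3 and 6.84 in camta2/3, by less than the SD of 0.37 in the triple mutant.

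**Figure D4:**
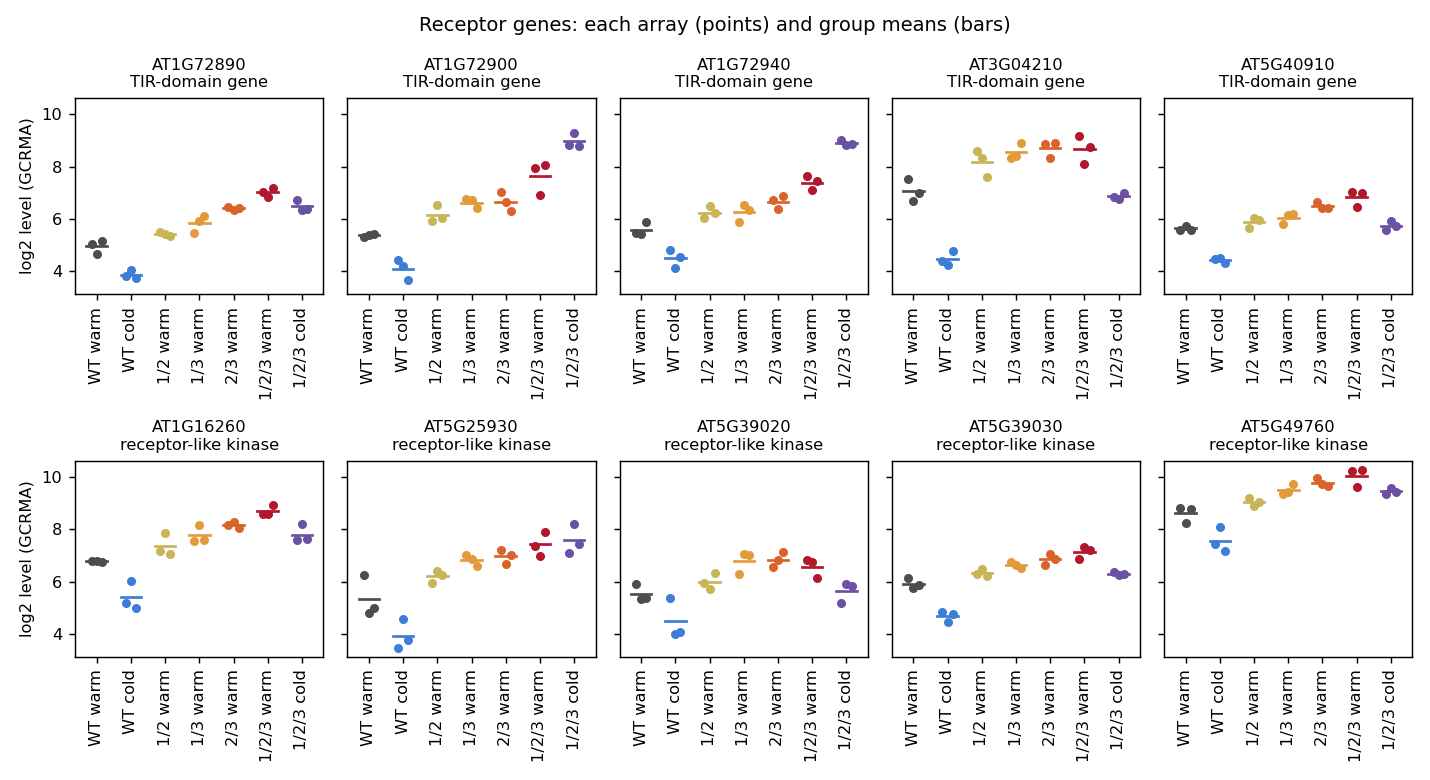
Log2 level of the 5 TIR-domain genes (upper row) and the 5 receptor-like kinase genes (lower row) on each array (points) with group means (bars); 1/2, 1/3, 2/3 and 1/2/3 stand for the camta mutants, doubles at 22 °C. AT1G72900 and AT1G72940 are highest in cold camta1/2/3, where AT3G04210 and AT5G40910 return to the level of warm WT.

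The signalling and regulatory genes numbered 7, with a median difference from warm WT of 0.47 in camta1/2, 0.49 in camta1/3 and 0.80 in camta2/3; 4 were called higher in camta2/3. DEWAX (AT5G61590), an ERF-type transcription factor known to repress wax synthesis genes, read 7.99, 7.76 and 7.88 in warm WT, 5.58, 5.90 and 4.54 in cold WT, 10.05, 8.98 and 9.70 in warm camta1/2/3 and 8.0, 7.90 and 6.85 in cold camta1/2/3. The cold triple mutant thus reached the warm WT level on 2 arrays and was lower on the third. AT3G26510, for a PB1-domain protein, read 7.79, 7.55 and 7.70 in warm WT, 4.51, 4.26 and 4.40 in cold WT, 9.30, 8.75 and 9.07 in warm camta1/2/3 and 5.74, 5.83 and 5.46 in cold camta1/2/3. All 4 of these groups were separate, and the fall in the triple mutant, by 3.36 on the log2 scale, was close to that of WT, by 3.29. The C2-domain gene AT5G37740, given above, read 5.38, 5.21 and 5.50 in warm WT and 8.14, 6.91 and 7.87 in warm camta1/2/3. The VQ-motif gene AT5G46780 had means of 6.63 in warm WT and 8.25 in warm camta1/2/3, and AT4G25940, for an ENTH-type clathrin adaptor, 5.46 and 6.78.

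Genes of protein folding and turnover also numbered 7. SGT1A, a co-chaperone that works with HSP90 in the assembly of intracellular immune receptors, read 6.74, 7.04 and 6.46 in warm WT, 7.09, 6.78 and 6.38 in camta1/2, 7.29, 7.69 and 7.02 in camta1/3, 7.94, 7.65 and 7.39 in camta2/3, with 8.16, 8.13 and 8.28 in the triple mutant. Its level in camta1/2 was that of WT to within the spread, and only camta2/3 and the triple mutant were wholly above the WT arrays. AT1G72060, for a serine protease inhibitor, read 5.98, 5.44 and 5.06 in warm WT, 8.69, 8.57 and 8.01 in warm camta1/2/3 and 4.17, 5.76 and 4.64 in cold camta1/2/3. The aspartyl protease gene AT5G19120 read 6.01, 5.63 and 6.37 in warm WT, 3.03, 3.67 and 3.03 in cold WT, 8.25, 8.10 and 8.14 in warm camta1/2/3 and 3.74, 3.26 and 4.19 in cold camta1/2/3. Cold brought both genes to overlapping levels in WT and the triple mutant. All 7 of the group were called lower in the cold within camta1/2/3 (12.3% of all probe sets), with a median of -1.59, and 4 were called above cold WT (10.5%), in contrasts whose warm triple and cold WT arrays chose the members. Of the same group, AT4G01610 encodes a cathepsin B-like protease and AT4G36550 a U-box protein; their warm triple means were 9.20 and 7.36, against 7.94 and 6.17 in warm WT.

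Lectins and osmotin formed a group of 4 in which the choice rested on variable arrays. JAL33 and JAL34, jacalin-related lectin genes that lie side by side on chromosome 3, read 7.13, 5.48 and 4.87 and 8.30, 6.67 and 6.26 in warm WT. Replicate 1 was the highest of the 3 for both, and it overlapped with the warm camta1/2/3 arrays, which read 6.70, 6.65 and 7.78 for JAL33 and 7.99, 8.11 and 8.57 for JAL34. OSM34 read 5.79, 3.56 and 6.39 in warm WT and 8.07, 8.37 and 8.12 in warm camta1/2/3. In each contrast of the rule 2 of the 4 genes were called, and 1, the legume lectin-like gene AT5G03350, was called higher in camta2/3 than in warm WT. The median difference of the group from warm WT was -0.60 in camta1/2, 0.62 in camta1/3 and 0.59 in camta2/3. JAL33 and JAL34 had means below warm WT in all 3 doubles, and OSM34 had one in camta1/2. AT5G03350 read 11.66, 10.54 and 10.05 in warm WT, 8.70, 10.31 and 9.40 in cold WT, 12.65, 12.33 and 12.54 in warm camta1/2/3 and 11.53, 11.53 and 11.33 in cold camta1/2/3. WT overlapped between the temperatures, and camta1/2/3 did not.

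Metabolic, transport and cell wall genes were the largest group with a role, with 12 members. Against warm WT 8 were called higher in camta2/3, 3 in camta1/3 and 1, MSRB9, in camta1/2. AT5G24210, for a class 3 lipase, read 7.82, 6.79 and 6.49 in warm WT, 8.20, 8.43 and 7.65 in camta1/2, 8.51, 9.07 and 8.83 in camta1/3, 9.89, 9.25 and 9.12 in camta2/3, with 10.17, 9.87 and 10.17 in the triple mutant. Its arrays in camta1/3 and camta2/3 were above all those of WT and camta1/2 and did not overlap each other. GTR2, a glucosinolate importer that loads these defence compounds into the phloem, read 7.17, 7.25 and 7.39 in warm WT, 5.18, 6.73 and 6.69 in cold WT, 8.66, 8.42 and 8.57 in warm camta1/2/3 and 7.81, 7.60 and 7.55 in cold camta1/2/3. In the doubles its mean was at most 0.56 above warm WT and was not called. AT1G26420, of the berberine bridge enzyme-like oxidases, had means of 4.43 in warm WT, 6.11 in warm camta1/2/3 and 4.62 in cold camta1/2/3. The pyruvate kinase family gene AT3G49160 had means below or near WT in the doubles (differences of -0.39, -0.19 and 0.47) and 1.24 above it in camta1/2/3.

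After 24 h of cold, camta1/2/3 had most of the 130 transcripts above cold WT. Its arrays were not used by the rule, but those of cold WT, chosen low, and of warm camta1/2/3, chosen high, were, so that comparisons with them are given as description. The cold triple mean was above the cold WT mean for 129 members, and the median difference over all 130 was 1.80 (range -0.21 to 5.05). That count of 129 was not made for other probe sets. Limma called 111 members higher, against 10.5% of all probe sets. Against warm camta1/2/3, limma called 89 lower, against 12.3% of all, and 5 higher, against 9.96% of all, with a median of -1.22 (range -4.72 to 1.52). Every cold array was below every warm array in WT and above every warm array in camta1/2/3 for 6 members, against 0.295% of all probe sets. Both calls, a fall in the cold and a level above cold WT, held for 71 members. The share of all probe sets with both calls was not computed. Without camta1/2/3 cold replicate 2 the counts were 103 above cold WT and 92 changed in the cold. With the actin gap in the model they were 91 and 99.

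Against warm WT, which cold camta1/2/3 can be set beside only as a level, the cold triple mean was higher for 83 members, at least 1 higher for 37 and at least 1 lower for 17. These counts too were made for the members alone. The named genes with the largest gaps between the genotypes in the cold were AT1G72900, AT5G39520, AT1G72940, MSRB9 and OSM34. AT5G39520 read 4.48, 6.40 and 4.83 in cold WT and 9.72, 10.17 and 9.67 in cold camta1/2/3, beside 7.22, 6.05 and 5.93 in warm WT and 9.44, 9.49 and 9.33 in warm camta1/2/3. WT overlapped between the temperatures, all triple mutant arrays were above all WT arrays, and the difference of 0.43 between cold and warm camta1/2/3 was not called. MSRB9 read 3.90, 4.68 and 4.18 in cold WT and 7.84, 8.44 and 8.23 in cold camta1/2/3, where it overlapped with the warm triple arrays.

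The 5 smallest gaps among named genes were those of AT1G22890, AT4G14270, JAL33, AT1G72060 and AT5G19120. AT1G22890 read 6.93, 6.36 and 6.36 in warm WT, 4.89, 5.33 and 4.83 in cold WT, 7.92, 8.16 and 7.90 in warm camta1/2/3 and 4.53, 5.34 and 5.27 in cold camta1/2/3. The genotypes were apart in the warm and overlapped in the cold. In all 19 members were not called between the genotypes in the cold, and 18 of these were called lower in the cold within camta1/2/3. No share of all probe sets was computed for this joint count. AT1G23390, with the deepest named fall in WT, read 5.39, 6.42 and 5.43 in cold WT and 8.86, 9.33 and 8.72 in cold camta1/2/3, with 11.26, 10.90 and 11.85 in warm camta1/2/3. It fell in both genotypes, and the cold triple arrays lay between the warm and the cold WT arrays.

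**Figure D5:**
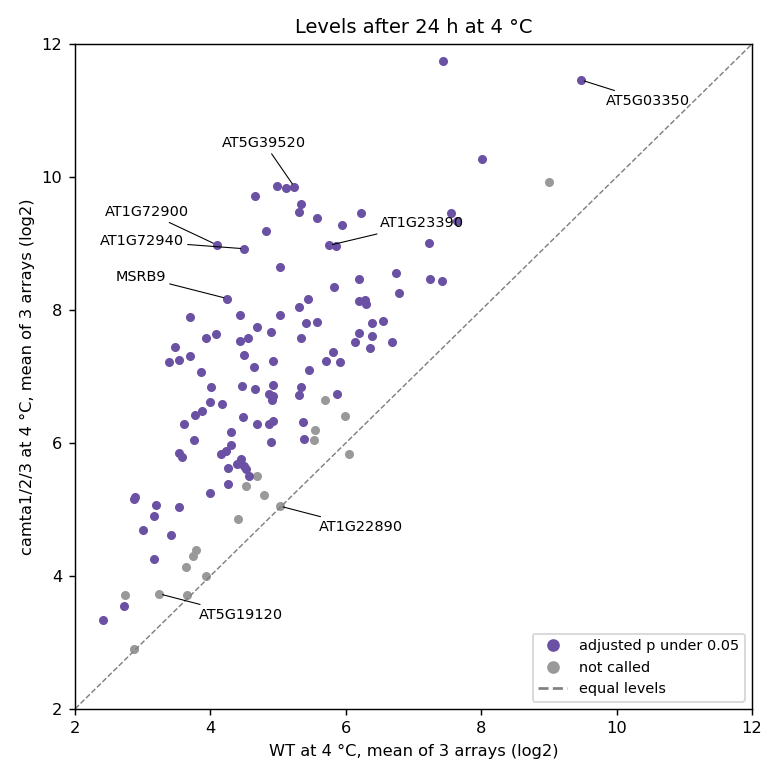
Mean log2 level of each of the 130 probe sets after 24 h at 4 °C in WT (horizontal axis) and camta1/2/3 (vertical axis), n = 3 arrays each, with the line of equal levels. The 111 purple points were called by limma and the 19 grey ones were not; 129 lie above the line.

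No member was matched to any of 13 lists of defence, hormone, cold and tissue genes, but few list genes could be looked up. Only 28 were measured by a named probe set. They included 2 of 15 genes of salicylic acid synthesis and control, 1 of 7 of senescence and 0 of 21 cysteine-rich receptor-like kinases. The 65 members without a gene name and the 3 paired with several genes could not be matched, so list genes among them would be missed. Among the measured list genes, both of salicylic acid synthesis and control were called higher in warm and in cold camta1/2/3 than in WT at the same temperature. Over all probe sets, 11.1% and 10.5% were called higher in these comparisons. SAG101, a partner of EDS1 in immune signalling, had means of 4.59 ± 0.20 in warm WT, 4.65 ± 0.42 in cold WT and 6.08 ± 0.46 in warm camta1/2/3. Of 7 measured genes of pattern-triggered immunity, 4 were called higher in warm camta1/2/3 (11.1% of all probe sets). Both measured genes of jasmonate and ethylene were called lower there (12.4% of all). All 6 measured cold-regulated genes were called higher in cold WT (9.93% of all). In warm camta1/2/3, 1 of these 6 was called higher and 2 lower. Of the 62 named members, 9 had another member within 5 coding genes: the pairs and the trio named above, and AT5G03350 with AT5G03380, a gene for a protein with a heavy-metal-associated domain.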

How the data were processed

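Transcript levels came from 21 Affymetrix arrays of 22810 probe sets. The values deposited by the authors are on the log2 scale, and GCRMA and limma are named in the submitters' processing notes, with versions not given in the sources used here. These values were used as deposited, with 64 control probe sets left out and no filter on low values. With limma 3.58.1, each probe set was modelled by its 7 group means (R 4.3.3; 14 residual and 0.954 prior degrees of freedom), and two-sided p-values were adjusted by the Benjamini-Hochberg method over 22746 probe sets. The number of arrays, 3 per group, limits the precision. The fit was tested on simulated data.

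The members, gene lists and tests were chosen with earlier results of these data known. The named genes were the 5 largest called differences in each direction between doubles, the 5 highest and 5 lowest gaps between genotypes in the cold, the genes at the edges of the rule and those with the largest warm rise in each class of RefSeq names. RefSeq names gave few roles, so the role groups, and the other genes named for them, came from general knowledge after the values were seen. Probe sets were paired with genes by the platform's annotation and RefSeq (TAIR10.1), which gave 13436 with 1 gene and left 8730 unnamed; no coordinates or sequences are given.

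Replicate numbers were checked for pairing by correlating deviations from group means: every pair exceeded 0.1 only for camta1/3 with camta2/3 (0.24, 0.11 and 0.24) and camta2/3 with warm WT (0.33, 0.13 and 0.12), while 16 of the 21 arrays had their closest residuals with an array of their own number. No arrays held identical values. Alternatives were other normalizations, filters, variances, array weights, the replicate block, an actin covariate, thresholds and leaving out each array.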

Additional observations from a re-analysis of the deposited data

Results flagged for a closer look

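For 6 of the 130 probe sets every cold WT array was below every warm WT array while every cold camta1/2/3 array was above every warm camta1/2/3 array, so that the genotypes moved in opposite directions in the cold. The same held for 67 of the 22746 probe sets (0.295%). The difference between the genotypes was not tested, since the rule fixed the fall in WT. The genes for TIR-domain proteins AT1G72900 and AT1G72940 were higher in cold than in warm camta1/2/3 by 1.33 and 1.52, where WT fell by 1.28 and 1.08. The other 4 had no gene name: 253696_at was 1.43 higher, 254409_at 1.15, 262177_at 0.87 and 247493_at 0.76 higher in the cold triple mutant, and the changes in WT were -1.02, -1.01, -1.27 and -1.02. Limma called the rise in camta1/2/3 for 5 of the 6, the exception being 262177_at, which read 8.34, 8.01 and 8.60 in the warm and 9.17, 9.08 and 9.31 in the cold.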

How the results depend on the processing

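Of 94 alternatives other than leaving out an array, 74 gave counts within 1.5 times those reported. This tally overstates stability, since counts of 0 that stayed at 0 were taken as within. For camta1/3 against either double, a stricter threshold could only leave the count at 0. A filter on a WT warm mean of at least 4 could not change the members, whose lowest such mean was 4.11. Requiring both differences to be 1.5 gave 32 members and 0.8 gave 239, whereas quantile normalization gave 124 and median centring 115. For camta2/3 against camta1/2 the 15 calls became 31 with a filter on a mean of 4, 42 with array weights, 8 with the actin covariate, 3 with only the 6 arrays compared and 5 at an adjusted p under 0.01, all of them higher. For camta1/3 against camta2/3 array weights gave 1. For camta1/2 against warm WT the 2 calls became 5 with quantile normalization, 9 with the filter, 5 with trended and robust variances, 8 with array weights, 1 with the replicate block, 0 with only the 2 groups and 0 at 0.01. For camta1/3 against warm WT the 33 became 51 with array weights, 0 with only the 2 groups and 12 at 0.01, and for camta2/3 against warm WT the 72 became 39 with only the 2 groups and 47 at 0.01. The filter and the threshold change how many probe sets are tested or called by construction, and the fits of 2 groups use fewer arrays; the cause of the other changes was not tested. The replicate block gave 18 calls for camta2/3 against camta1/2, and 32 and 75 for camta1/3 and camta2/3 against warm WT. It gave 112 and 94 for the comparisons of cold camta1/2/3 with cold WT and with its own warm arrays. Apart from the fall from 2 to 1 for camta1/2 against warm WT, it moved no count by more than 1.5 times. Leaving out 1 array gave 116 to 155 members, 0 to 0 calls for camta1/3 against either double, 5 to 16 for camta2/3 against camta1/2, 0 to 10, 11 to 34 and 51 to 70 for camta1/2, camta1/3 and camta2/3 against warm WT, 103 to 108 between the genotypes in the cold and 81 to 95 between the temperatures in camta1/2/3. The reported count of 72 for camta2/3 was thus above each value with an array left out. Low signal limits at least the 6 members with cold WT means of 3 or lower. Some levels above 3 were also nearly flat in cold WT, such as 4.04, 4.01 and 3.99 for 262118_at. Whether these lie at a floor of the probe set was not tested. A search of promoters for motifs was not run.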

Other observations

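Members without a gene name made up 65 of the 130. Their median difference from warm WT was 0.29 in camta1/2, 0.76 in camta1/3 and 1.02 in camta2/3, and 1, 20 and 38 of them were called higher, where 0.101%, 1.67% and 4.61% of all probe sets were. Called in all 3 doubles, 267083_at read 9.30, 9.01 and 8.80 in warm WT, 10.95, 11.03 and 10.19 in camta1/2, 11.07, 11.08 and 11.05 in camta1/3, 11.87, 11.19 and 11.45 in camta2/3, with 12.32, 11.53 and 12.05 in camta1/2/3. In the cold it read 7.30, 7.99 and 6.99 in WT and 11.55, 11.85 and 11.81 in camta1/2/3, so that the triple mutant overlapped between the temperatures. A different course was seen for 253806_at, which read 3.66, 3.66 and 3.66 in cold WT and 3.72, 3.70 and 3.70 in cold camta1/2/3, beside 4.65, 5.0 and 4.71 in warm WT and 7.02, 6.93 and 7.54 in warm camta1/2/3. Both genotypes came to the same low level in the cold, with almost no spread between arrays. Whether this level is the floor of the probe set was not tested, since the values came without detection calls.

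Named genes without a described role here included AT4G27450, which read 7.16, 6.64 and 6.29 in warm WT, 3.23, 3.59 and 4.46 in cold WT, 9.84, 9.21 and 9.52 in warm camta1/2/3 and 6.39, 6.12 and 5.6 in cold camta1/2/3. It had the deepest called fall in cold among such genes of the triple mutant, by 3.49 on the log2 scale, and its cold triple mean was still 2.28 above cold WT. CCL read 11.16, 10.59 and 10.52 in warm WT and 9.28, 9.18 and 8.55 in cold WT, and in warm camta1/2/3 it read 12.51, 10.97 and 12.28, where replicate 2 lay within the WT range. These genes and probe sets were chosen after their values were seen.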
